A study of Mus musculus with 2 samples.

Results

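The genes described here are the chemokines and chemokine receptors of the mouse: those whose symbols name a CC or CXC ligand, a CC or CXC receptor, Cx3cl1, Cx3cr1, Xcl1, Xcr1, Ackr1 or Ackr3. The rule took 64 gene IDs of the 32285 in the files, which carry 58 symbols: 44 IDs of ligands and 20 of receptors. Chemokines are small secreted proteins that steer leukocytes along gradients by binding G protein-coupled receptors on their surface. Most signal through inhibitory G proteins, while the atypical receptors Ackr1 and Ackr3 bind chemokines without that signal and carry or remove them. In tissues, resident macrophages, fibroblasts and endothelium are known sources of inflammatory chemokines, and lymphoid organs use a small set of homeostatic ones to hold T cells, B cells and dendritic cells in place.

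The 2 groups were islet cells of mice labelled DIO, 1 dosed with saline for 2 weeks and the other with CDS at 10 mg/kg for the same time. What CDS is, the labels do not say. Each group gave 1 droplet library of dissociated cells, with no statement of how many mice each library pooled, of strain, sex or age, or of any cell sort. The labels call the cells islet b cell, but clusters with the defining markers of 13 cell classes were found. Deposited values are unique molecular identifier (UMI) counts, each standing for 1 captured RNA molecule. With 1 library per group there is no replicate check of any difference, so no p-value is given, and every 95% interval covers counting error only. Levels are UMIs of a gene per 1000000 UMIs of the cells named (CPM). These levels carry no length scale, and the exact droplet chemistry is not given in the sources used here. Levels are therefore compared between cells for 1 gene and not between genes.

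Barcodes numbered 12453 for saline and 7268 for CDS, with 124343325 and 141191447 UMIs in total. After filters and removal of called doublets, 10970 and 6188 cells were left, with a median of 9790 and 19159 UMIs, and 18 of these barcodes occurred in both libraries. The libraries held different cells: T-like cells were 11.4% of saline cells and 0.162% of CDS cells, and B-like cells 10.8% and 0.566%. Clusters were built without the chemokine and receptor genes, so that their levels by class were not set by the clustering, and 25 of 29 clusters could be named. A class is called beta-like, alpha-like, delta-like or PP-like for markers of the cells that make insulin, glucagon, somatostatin or pancreatic polypeptide, and the other classes are named from their markers in the same way.

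Of the 64 gene IDs, 54 had at least 1 UMI in kept cells. At least 100 UMIs were found for 38 of them, 10 to 99 for 10 (Ccl8, Ccl17, Ccl20, Cxcl17, Xcl1, Ccr4, Ccr8, Ccr10, Cxcr1 and Cxcr3), and 1 to 9 for 6 (Ccl1, Ccl24, Ccl26, Cxcr2, Xcr1 and another ID of Ccl21a). The other 10 IDs had none: Ccl27b, Cxcl15, Ccr3, both IDs each of Ccl21b and Ccl21c, a pair of further Ccl27a IDs and a further Ccl19 ID. The Ccl19, Ccl21 and Ccl27 copies are nearly identical in sequence, so which copy a read belongs to is uncertain. Exons of some members overlap another gene in GENCODE, and whether strand was used in counting is not given in the sources used here. This touches Ccl27a (with Il11ra1), Ccl25 (Elavl1), Cxcl16 (Zmynd15), Cxcl10 (Art3), Cxcr5 (Bcl9l), Cx3cr1 (Gm33858), Xcl1 (Gm20743), Ackr1 (Cadm3, on the same strand) and Ccr9 (Slc6a20a and Gm17200), whose values may hold reads of the neighbour.

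Ligand and receptor RNA came from few cells, and from different classes in the 2 libraries. Ligand genes together had 36367 UMIs in saline cells and 22416 in CDS cells. In the saline library stromal-like cells (clusters matching fibroblasts or pericytes) were 1.55% of cells and held 42.5% of ligand UMIs (95% interval 42.0 to 43.0%, Clopper-Pearson, as for all shares here). In the CDS library they were 1.20% of cells and held 10.1% (9.74 to 10.5%). Macrophage-like cells held a larger share in the CDS library, with 20.5% (20.1 to 21.0%) of saline and 45.2% (44.5 to 45.8%) of CDS ligand UMIs, at 1.48% and 2.59% of cells. Within these cells ligands made up 7470 of 1043406 UMIs in saline and 10131 of 1792026 in CDS cells. Their own ligand level was thus lower, not higher, in the CDS library. Beta-like cells, 47.5% and 60.2% of cells, held 13.9% and 22.5% of ligand UMIs. Receptor UMIs, 5080 and 2083, were spread over B-like (21.5%), T-like (20.2%), dendritic-like (19%) and macrophage-like cells (11.1%) in the saline library. In the CDS library, with few lymphoid cells, macrophage-like cells held 45.2% and endothelial-like cells 18.3% of them.

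**Figure D1:**
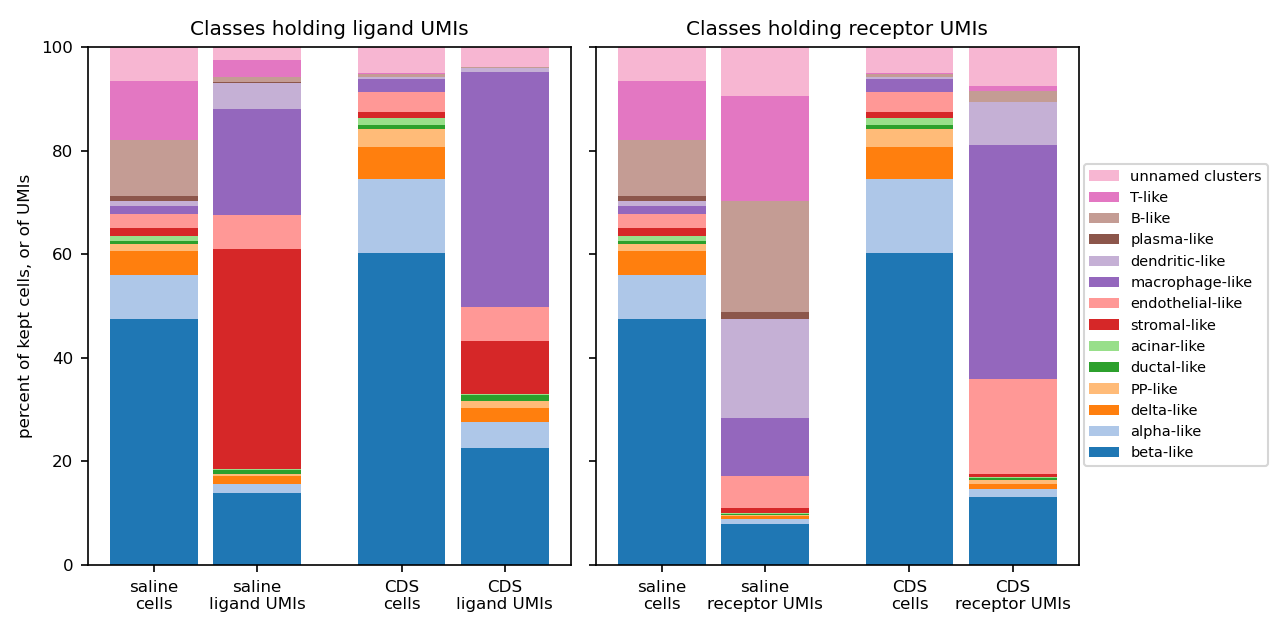
Stacked bars of the percent of kept cells and of ligand or receptor UMIs in each cell class, for 1 saline and 1 CDS library. Stromal-like cells, 1.55% of saline cells, held 42.5% of saline ligand UMIs, and macrophage-like cells held 45.2% of both ligand and receptor UMIs in the CDS library.

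Each of the 42 members with at least 50 UMIs in named classes was assigned to the class with its highest CPM over both libraries. Macrophage-like cells led for 13 (9 ligands and 4 receptors), stromal-like cells for 11 ligands and no receptor, and dendritic-like cells for 5. T-like cells led for 4, B-like cells for 3 receptors, endothelial-like cells for 3, delta-like cells for 2 ligands and plasma-like cells for 1 receptor. In all, 26 members were led by an immune class, and 22 to 25 under the other filters, clusterings and gates tried. The saline library alone gave the same leading class for 42 of 42 members, and the CDS library alone for 29 of 42. In the CDS library T-like, dendritic-like and plasma-like cells numbered under 20 and could not lead. The 13 that changed were Cxcl9 (led by macrophage-like cells in the CDS library, from 18 UMIs), Cxcl12 (endothelial-like) and Cxcl3 (stromal-like), with Ccl17, Ccl22, Ccl25, Cxcl10, Cxcl16, Xcl1, Ccr7, Ccr9, Ccr10 and Cxcr6, which 1 of those 3 classes led for over both libraries. Some orders rest on close values over both libraries: Cxcr4 stood at 59.7 CPM in B-like and 55.8 in endothelial-like cells, Cxcl3 at 193 in macrophage-like and 190 in stromal-like cells, and Cxcl12 at 40.7 in stromal-like and 37.6 in endothelial-like cells. Ccl25 stood at 32.3 CPM in T-like and 29.5 in B-like cells, Ccr9 at 21.0 and 19.5 in the same classes, and Ccr6 at 59.0 in B-like and 47.5 in dendritic-like cells.

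**Figure D2:**
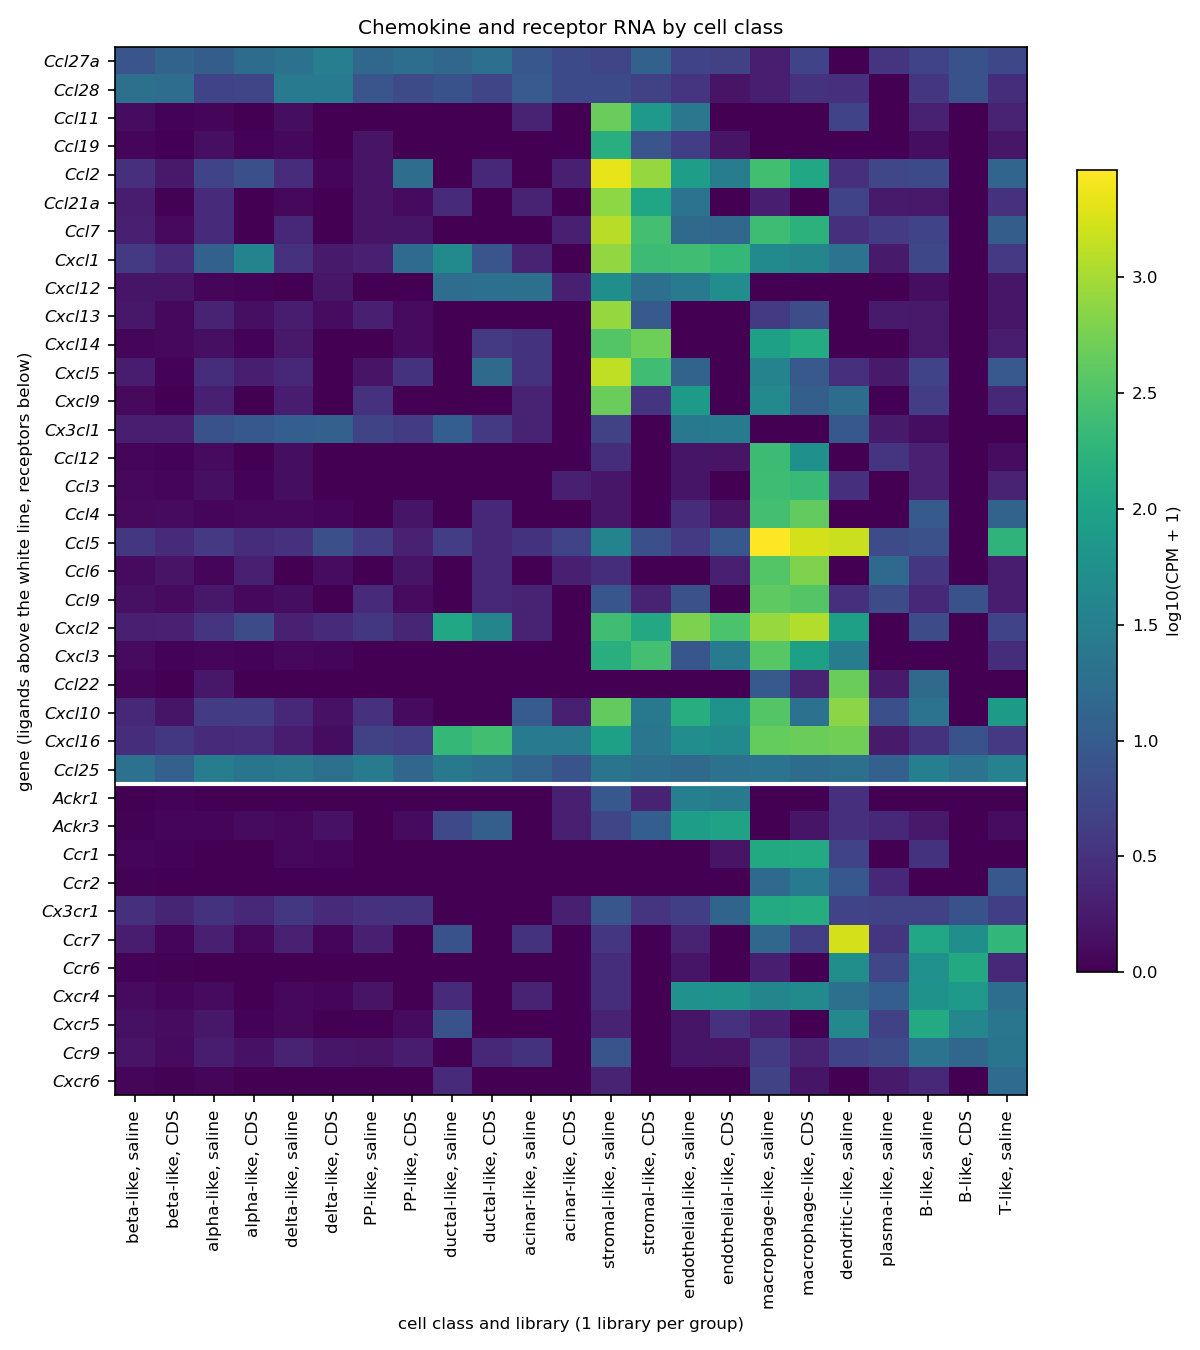
Level of members with at least 100 UMIs (rows, ligands above the white line and receptors below) in each cell class and library with at least 20 cells (columns), as log10(CPM + 1). Inflammatory ligands concentrate in the stromal-like, endothelial-like, macrophage-like and dendritic-like columns, Ccl27a and Ccl28 are highest in delta-like columns, Ccl25 is spread over the classes, and lymphoid receptors stand out in the columns on the right.

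Stromal-like cells were the leading class of Ccl2 and Ccl7, which draw monocytes through Ccr2, of the eotaxin Ccl11, of the neutrophil attractants Cxcl1 and Cxcl5, and of Cxcl9, Cxcl12, Cxcl14, Ccl19, Ccl21a and Cxcl13. Over all kept cells Cxcl5 had 2396 saline and 311 CDS UMIs, Ccl7 2453 and 578, Cxcl1 2176 and 1387, Ccl11 841 and 71, Cxcl14 715 and 676, and Cxcl12 217 and 195. Ccl19 had 271 and 12, Ccl21a 1348 and 96, Cxcl13 1400 and 51, and Cxcl9 977 and 20. Their levels in stromal-like cells over both libraries were 985 CPM for Cxcl5, 916 for Ccl7, 604 for Cxcl1, 334 for Ccl11, 396 for Cxcl14, 103 for Ccl19, 535 for Ccl21a, 540 for Cxcl13 and 306 for Cxcl9. For Ccl2, at 1704 CPM, they held 3473 of 4213 saline UMIs of Ccl2 (82.4%) and 671 of 1235 CDS UMIs (54.3%). These cells formed 2 clusters with different ligands. Cluster 24, with Dcn, Col3a1 and Grem1 among its 10 leading genes, had 82 saline cells and 4 CDS cells. Cluster 19, with Timp1, Il11 and Tnc among them, had 88 and 70. It matched pericytes best, with no pericyte marker among its 10 leading genes. In its saline and CDS cells pericyte markers summed to 692 and 725 CPM and fibroblast markers to 2608 and 729 CPM. Ductal markers summed to 3662 and 2912 CPM, with Krt19 and Cftr at 0 in both, and beta cell markers to 85562 and 181992 CPM. Their part in the ligand levels of cluster 19 was not tested.

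In the 82 saline cells of cluster 24 Ccl2 stood at 3166 CPM (2928 UMIs), and in cluster 19 at 797 CPM in saline cells and 820 CPM in CDS cells. Cxcl5 stood at 2194 CPM in cluster 24 against 235 and 158 CPM in cluster 19. Ccl7 stood at 1962 CPM against 281 and 232, Cxcl1 at 1174 CPM against 276 and 198, and Ccl11 at 706 CPM against 146 and 58.0. Each of these was lower in cluster 19 than in cluster 24 in the saline library, with intervals that do not overlap. Cxcl14, an attractant of myeloid cells, had the opposite order, with 137 CPM in cluster 24 and 624 and 513 CPM in cluster 19. Cxcl3 in cluster 19 stood at 39.5 CPM in saline and 286 CPM in CDS cells, but 1 CDS cell held 50% or more of its 217 UMIs.

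The homeostatic ligands of lymphoid tissue were found in cluster 24. Ccl19 and Ccl21a, which draw naive T cells and dendritic cells through Ccr7, had 239 UMIs (258 CPM) and 1211 UMIs (1310 CPM) there in the saline library. In cluster 19 they had 6 and 0 saline UMIs. Cxcl13, which draws B cells through Cxcr5, had 1306 UMIs (1412 CPM) in cluster 24 and 1 in cluster 19, with 6 cells holding 50% of it. Of the 82 cells, 46 (56.1%, 44.7 to 67.0%) had both Ccl19 and Ccl21a UMIs, and 25 (30.5%, 20.8 to 41.6%) had all 3. The 4 CDS cells of the cluster held 4 UMIs of Ccl19, 60 of Ccl21a and 7 of Cxcl13. Of all saline UMIs of Cxcl9 and Cxcl10, which draw activated T cells and natural killer cells through Cxcr3, this cluster held 740 (800 CPM) and 688 (744 CPM), and 31 of its 82 cells (37.8%) had both, with 3 cells holding 50% of the Cxcl10. Cxcl12, the ligand of Cxcr4 and Ackr3, stood at 77.9 CPM in cluster 24 and at 17.5 and 10.5 CPM in cluster 19. Over all stromal-like cells Ccl19 went from 245 to 6 UMIs, Cxcl13 from 1307 to 7 and Cxcl9 from 742 to 2 between the saline and the CDS library. That difference cannot be told apart from the 82 and 4 cells of cluster 24, and stromal-like cells were too few in the CDS library, 74, for a ratio.

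Endothelial-like cells also formed 2 clusters. Cluster 28 (36 saline and 13 CDS cells), led by Selp, which codes for the adhesion protein P-selectin of venules, held all endothelial UMIs of Ackr1, the atypical receptor known from venular endothelium. Ackr1 had 53 saline UMIs (184 CPM) and 51 CDS UMIs (400.5 CPM) there, and 0 in cluster 12 (267 and 229 cells), which allows up to 3 counts. In each library 2 cells held 50% or more of the endothelial Ackr1 UMIs. Ackr3, the scavenger of Cxcl12, stood in cluster 12 at 100 and 102 CPM and in cluster 28 at 20.8 and 47.1 CPM. Cxcr4 stood at 65.3 and 59.4 CPM in cluster 12 and at 3.47 and 15.7 CPM, from 1 and 2 UMIs, in cluster 28. Endothelial-like cells led for the membrane-bound ligand Cx3cl1 as well, at 24.1 and 25.4 CPM, with 42 and 49 UMIs. Over both libraries Ackr3 stood at 93.1, Ackr1 at 28.3 and Cx3cl1 at 24.8 CPM in this class, and over all kept cells they had 195, 69 and 285 saline and 272, 63 and 338 CDS UMIs. A further cluster of 56 saline and 22 CDS cells matched endothelium and pericytes about equally and was left unnamed.

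**Figure D3:**
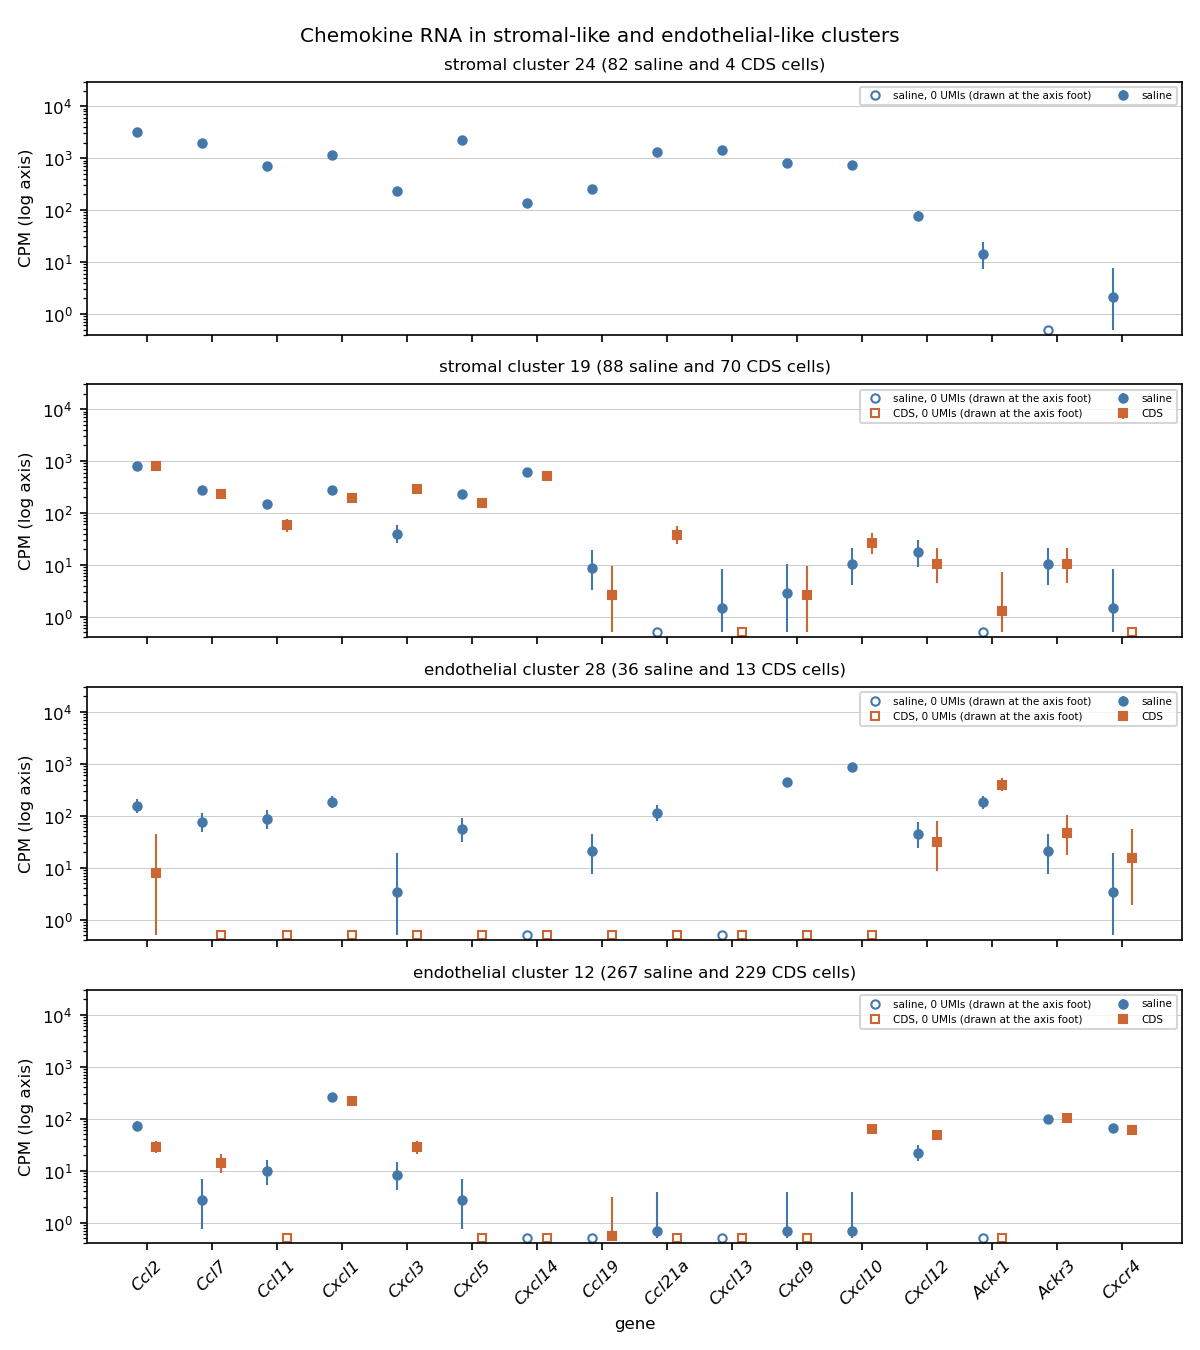
CPM on a log axis of 16 chemokine and receptor genes in the stromal-like clusters 24 and 19 and the endothelial-like clusters 28 and 12, per library, with 95% Poisson intervals of the counts. Open symbols at the axis foot stand for 0 UMIs, and the 4 CDS cells of cluster 24 are not drawn. Ccl19, Ccl21a and Cxcl13 are high in cluster 24, Ackr1 in cluster 28, and Ackr3 and Cxcr4 in cluster 12.

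Macrophage-like cells (162 saline and 160 CDS cells) were the leading class of the inflammatory ligands Ccl3, Ccl4 and Ccl5, of the rodent Ccr1 ligands Ccl6 and Ccl9, of the Ccr2 ligand Ccl12, of Ccl8, and of the neutrophil attractants Cxcl2 and Cxcl3. They held 63.4% of saline and 89.6% of CDS UMIs of Ccl5, at 2898 CPM (3024 UMIs) and 1732 CPM (3103 UMIs). Over all kept cells Ccl5 had 4766 saline and 3465 CDS UMIs, Cxcl2 2708 and 3136, Cxcl3 685 and 532, Ccl9 508 and 647, Ccl6 415 and 1177, Ccl4 365 and 798, Ccl3 287 and 407, and Ccl12 271 and 105. Over both libraries their levels in this class were 2161 CPM for Ccl5, 1041 for Cxcl2, 366 for Ccl9, 517 for Ccl6, 367 for Ccl4, 226 for Ccl3 and 120 for Ccl12. Receptors they led for among named classes included Ccr1 (151 and 247 UMIs in all kept cells, 129 CPM in this class), Ccr2 (107 and 48, 21.5 CPM) and Cx3cr1 (389 and 447, 135 CPM). Of the saline Ccr2 UMIs, however, unnamed clusters held 53.3% and macrophage-like cells 14.0%. In the saline library Ccr1 was found in 40.1% of these cells and Cx3cr1, the receptor of Cx3cl1, in 27.8%. In the CDS library, which was deeper, the shares were 55.6% and 50.6%. After thinning to 1500 UMIs per cell they were 16.7 and 19.3% for Ccr1 and 14.4 and 17.9% for Cx3cr1 in saline and CDS cells. Median depths were 5242 and 9579 UMIs, and 2 saline and 6 CDS cells were too shallow to thin. Free RNA from broken cells can put a UMI of a gene into any droplet. Beta-like cells, which are not known for Ccr1, had it in 0.0959% of saline cells (0.011% thinned) at a median depth of 15352 UMIs. For Cx3cr1 these more numerous cells held 154 of the saline UMIs (39.6%), against 135 (34.7%) in macrophage-like cells. In the CDS library they held 129 (28.9%), against 248 (55.5%).

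Dendritic-like cells (114 saline and 14 CDS cells, cluster 21, led by Fscn1) led for the Ccr4 ligands Ccl17 and Ccl22, for Cxcl10, for Cxcl16, the membrane-bound ligand of Cxcr6, and for Ccr7, which takes maturing dendritic cells to lymphoid tissue. Ccr7 was found in 108 of the 114 saline cells (94.7%, and 86.2% thinned) at 1741 CPM, and in 13 of the 14 CDS cells at 1528 CPM. Its UMIs over all kept cells were 2085 (saline) and 194 (CDS). It was found in 1.30% of beta-like saline cells (0.153% thinned). Ccl22 stood at 482 CPM in the saline cells (245 UMIs in 52 cells) and at 88.1 CPM in the CDS cells (9 UMIs in 3 cells). Over all kept cells Ccl22 had 312 and 11 UMIs, Cxcl10 2269 and 272, and Cxcl16 1306 and 1538, with 416, 599.6 and 487 CPM in this class over both libraries. Cxcl10 had 366 UMIs in the dendritic-like saline cells, 48 of which had one, and 0 in the 14 CDS cells, which allows up to 3 counts. Cxcl16 was also high in macrophage-like cells, at 438 against 510 CPM in saline cells, with intervals of the counts that overlap.

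Lymphoid receptors were read in the saline library, since 35 B-like and 10 T-like cells remained in the CDS library. B-like cells (1188, median 1760.5 UMIs) had Cxcr5, the receptor of Cxcl13, in 22.1% of cells (16.5% thinned, 356 UMIs), Ccr7 in 21.0% (16.5% thinned), Cxcr4 in 12% (9.78% thinned) and Ccr6, the receptor of Ccl20, in 7.07% (4.61% thinned). In beta-like cells the thinned shares were 0.0775% for Cxcr5, 0.0633% for Cxcr4 and 0.0218% for Ccr6. Thinning left out 307 of the B-like cells. T-like cells (1254, median 2160 UMIs) had Ccr7 in 33.7% of cells (23.7% thinned), Ccr9, a gut-homing receptor, in 4.78% and Cxcr6 in 3.67%. Over all kept cells Cxcr5 had 534 saline and 49 CDS UMIs (124 CPM in B-like cells over both libraries), Cxcr4 462 and 277, Ccr6 223 and 35, Ccr9 214 and 51, and Cxcr6 128 and 15 (15.6 CPM in T-like cells). The small CDS groups gave Cxcr5 in 2 of 35 B-like cells and Ccr7 in 7 of 35 B-like and 4 of 10 T-like cells.

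T cells were also gated by a UMI of Cd8a or Cd8b1, of Cd4 or of Foxp3, over the clusters 9, 10 and 15 whose best match was T cells. Ccl5 had 217 UMIs in the 409 Cd8 cells (171 CPM), 7 in the 232 Cd4 cells (10.6 CPM) and 2 in the 102 Foxp3 cells (6.35 CPM). Xcl1, a ligand of cross-presenting dendritic cells, had 28 UMIs in Cd8 cells, 1 cell of which held 50% or more, and 0 in Cd4 cells, with intervals of 14.7 to 32.0 and 0 to 5.60 CPM. Ccr9 stood at 28.4 CPM in Cd8 cells and 4.55 CPM in Cd4 cells. Ccr8 was found in 15 of the 102 Foxp3 cells (14.7%, 19 UMIs, 60.3 CPM), in 3 of the 232 Cd4 cells and in 1 of the 409 Cd8 cells. Ccr7 was similar among them, at 225, 173 and 156 CPM in Cd8, Cd4 and Foxp3 cells. Cluster 15 (326 saline and 16 CDS cells), led by Ctla4, Tnfrsf4 and Icos and left unnamed for its low depth with no T cell marker among its 10 leading genes, had the receptors of recruited T cells: 57 UMIs of Ccr2 (68.7 CPM), 52 of Cxcr6 (62.7 CPM), 36 of Ccr8 (43.4 CPM) and 30 of Cxcr3 (36.2 CPM). In T-like clusters the same receptors stood at 7.92, 15.2, 1.52 and 6.40 CPM. Ccr10, a receptor of antibody-secreting cells, had 15 UMIs in 11 of the 94 saline plasma-like cells.

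**Figure D4:**
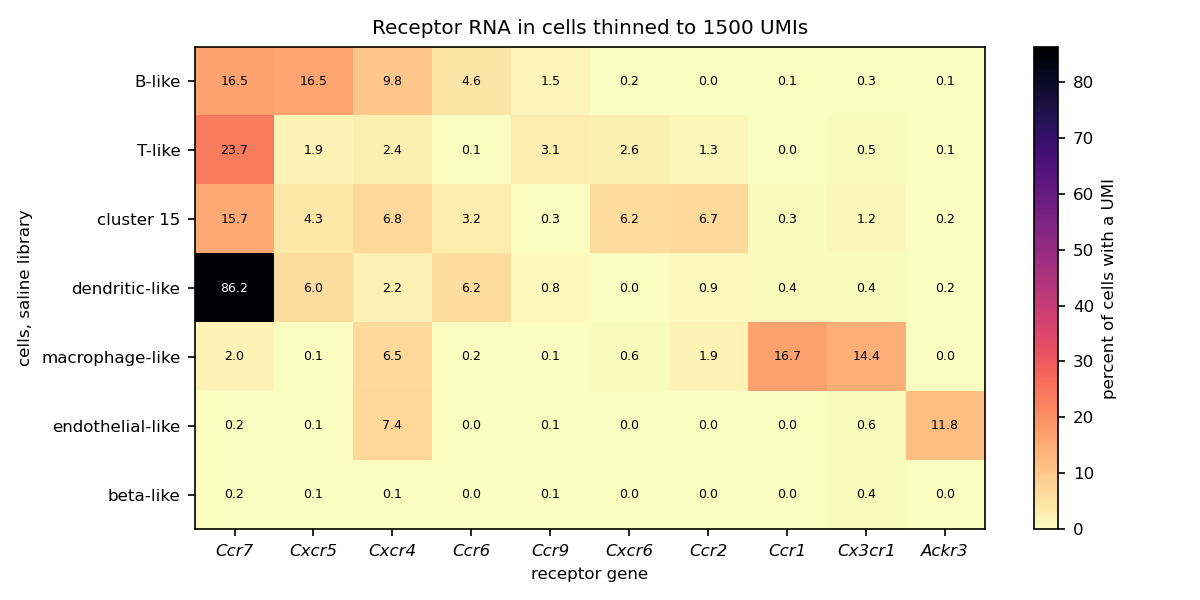
Percent of saline cells with at least 1 UMI of 10 receptor genes after thinning every cell to 1500 UMIs, with the value printed in each field. Ccr7 reaches 86.2% in dendritic-like cells, and Ccr1 and Cx3cr1 are high in macrophage-like cells.

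Set side by side, 20 of 35 textbook ligand and receptor pairs had both genes measured. In 9 of them the same class led for ligand and receptor, among them, in macrophage-like cells, Ccl3, Ccl5, Ccl6 and Ccl9 with Ccr1 and Ccl12 with Ccr2. In 6 pairs a stromal-like ligand faced an immune receptor. Ccl2 and Ccl7 faced Ccr2 of macrophage-like cells, and Ccl19 and Ccl21a faced Ccr7 of dendritic-like cells. Cxcl12 faced Cxcr4 and Cxcl13 faced Cxcr5, both of B-like cells. Unnamed clusters could not lead, and they held 57 of 107 saline Ccr2 UMIs, against 15 in macrophage-like cells. Macrophage-like cells held 46 of 48 in the CDS library. Endothelial-like cells were close behind the leading class for Cxcl12 (37.6 against 40.7 CPM) and Cxcr4 (55.8 against 59.7 CPM) over both libraries. In the CDS library they held 109 of 277 Cxcr4 UMIs, against 11 in B-like cells. Cxcr2, the receptor of Cxcl1, Cxcl2, Cxcl3 and Cxcl5, had 9 UMIs in all kept cells, and Cxcr1 had 11. Cxcr3, the receptor of Cxcl9 and Cxcl10, had 73 saline and 7 CDS UMIs.

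Beta-like cells, the most numerous class, held most UMIs of Ccl28, Ccl27a and Ccl25, but not all of these ligands were particular to hormone-producing cells. Over both libraries T-like cells led for Ccl25. Ductal-like cells had 8 Ccl27a UMIs among 619473 in saline and 12 among 688128 in CDS cells. Over all kept cells Ccl28 had 1740 saline and 1975 CDS UMIs, Ccl27a 885 and 1695, and Ccl25 2371 and 1610, with 26.8 CPM of Ccl28 and 24.4 CPM of Ccl27a in delta-like cells over both libraries. Ccl28, an epithelial ligand of Ccr10 and Ccr3, stood in delta-like cells at 26.7 CPM (150 UMIs) and 26.9 CPM (170 UMIs) in saline and CDS cells, and in beta-like cells at 18.1 CPM (1437 UMIs) and 16.4 CPM (1636 UMIs). It was found in 18.3% of saline beta-like cells (2.64% thinned) and 2.39% of alpha-like cells (0.478% thinned). B-like cells, where it had 7 UMIs, gave 0.589% unthinned and 0.478% thinned, the level that alpha-like cells had too. Within beta-like cells Ccl28 was higher in cluster 5, led by the acute-phase genes Fgg, Lcn2 and Fga, at 37.4 and 41.0 CPM, than in cluster 1, at 12.7 and 8.52 CPM, in both libraries. Ccl27a, the skin-homing ligand of Ccr10, had its highest CPM in delta-like cells, at 19 and 29.1 CPM, with 7.16 and 11.5 CPM in beta-like cells. Ccl25, known as the thymic and gut ligand of Ccr9, was spread over hormone-producing and lymphoid classes. It stood between 18.9 CPM in beta-like and 32.9 CPM in T-like saline cells among alpha-like, beta-like, delta-like, PP-like, B-like and T-like cells, and its exons overlap Elavl1. Ductal-like cells had Cxcl16 at 199 and 259 CPM, in 36 of 47 and 33 of 44 cells.

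Ratios of CDS over saline were taken in the 6 classes with at least 100 cells in each library, after scaling each class sum with TMM factors (scaled CPM). The call was higher from a ratio of 1.5 upwards and lower from 0.667 downwards, for 73 member and class pairs with at least 50 UMIs over both libraries. Of these, 18 were called higher and 18 lower, beside 7.39 to 19.4% and 3.55 to 11.5% of all genes in the single classes. With plain CPM the split was 15 and 25, with median-of-ratios factors 18 and 20, and without hormone, acinar and mitochondrial genes in the totals 17 and 24. Plain CPM moves every ratio by -0.11 to -0.41 on the log2 scale, most in beta-like cells. Because a few cells often held most UMIs of a ligand, 35 of the 36 calls were also computed without the 3 cells highest in that gene in each library.

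In macrophage-like cells 21 members were measured, of which 5 were called higher and 6 lower, beside 14.2% and 11.5% of all genes. Their median log2 ratio was -0.08 against 0.02 for all genes. Interferon-induced Cxcl10 went from 319 to 19.5 scaled CPM (352 and 33 UMIs, ratio 0.061, 0.041 to 0.087). It was found in 21 of 162 saline and 10 of 160 CDS cells, with 3 and 2 cells holding 50% of its UMIs, and without the 3 highest cells the ratio was 0.040. Cxcl9 went from 39.0 to 10.6 scaled CPM (43 and 18 UMIs, ratio 0.273, 0.148 to 0.483). Ccl12 went from 219 to 57.2 scaled CPM (ratio 0.261, 0.204 to 0.332, and 0.0486 without the 3 highest cells), Cxcl3 from 345 to 97.4 (0.282, 0.233 to 0.339), and Ccl2 from 246 to 123 (0.502, 0.417 to 0.604). With each cell weighted equally Ccl2 stood at 0.677 and Cxcl5 at 0.949, both without a call. Cxcl5 went from 32.6 to 8.85 scaled CPM (0.271, 0.138 to 0.508), with 1 cell holding 50% or more of it in each library.

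The 5 members called higher in macrophage-like cells were Ccl4, Ccl6, Cxcl2, Cxcl14 and Ccr2. Ccl6 went from 327 to 651 scaled CPM (361 and 1104 UMIs, ratio 1.99, 1.77 to 2.25), and Ccl4 from 252 to 450 (1.78, 1.55 to 2.05). Cxcl2 went from 796 to 1223 scaled CPM (1.54, 1.42 to 1.67) and was at 1.37 with plain CPM. Cxcl14 went from 87.9 to 143 (1.63, 1.28 to 2.09) and was at 1.39 without its 3 highest cells. Ccr2, the receptor of recruited monocytes, went from 15 to 46 UMIs (ratio 2.00, 1.09 to 3.85), while the 6 monocyte markers summed to 167 and 253 CPM in these saline and CDS cells. With each cell weighted equally Ccl6 stood at 1.42, Cxcl2 at 1.45 and Cxcl14 at 1.38. Ccl5, from 2741 to 1831 scaled CPM (0.668, 0.635 to 0.703), lay just outside the limit, and at 0.653 without its 3 highest cells. The 6 T cell markers summed to 27.8 CPM in saline and 0.558 CPM in CDS macrophage-like cells, with 5 of 6 at 0 in the latter, and the 6 fibroblast markers, 3 of them with a UMI, to 3.83 and 0.558 CPM. Their part in these ratios was not tested.

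Other measured members of macrophage-like cells lay between the limits. The receptors Ccr1 (1.18, 0.95 to 1.48), Cx3cr1 (1.20, 0.966 to 1.49) and Cxcr4 (1.34, 0.900 to 2.01) had intervals that include 1. So did the ligands Ccl3 (0.992, 0.845 to 1.17), Ccl9 (0.947, 0.835 to 1.07) and Cxcl1 (0.920, 0.621 to 1.37). Ccl7 stood at 0.75 (0.632 to 0.890) and Cxcl16 at 1.25 (1.11 to 1.40).

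In endothelial-like cells 14 members were measured, of which 2 were called higher and 4 lower, beside 10.6% and 9.65% of all genes. Cxcl9 had 133 saline UMIs and 0 CDS UMIs, so it was at least 44.3-fold lower against a floor of 3 counts in the CDS class sum. Without the 3 highest cells it was at least 15.8-fold lower, and over the 12 alternatives that measured it the upper bound of the ratio lay between 0.0195 and 0.0632. All but 1 of the 133 UMIs lay in 12 of the 36 saline cells of cluster 28. That cluster had 13 CDS cells, with 288009 UMIs in saline and 127344 in CDS cells. The bound over all endothelial-like cells is therefore not a bound within this cluster, and it also holds the cluster's share of each library. Cxcl10 had 252 saline UMIs, 251 of them in cluster 28, and 112 CDS UMIs, none of them there. Its ratio was 0.445 (0.353 to 0.557), but 1 CDS cell held 50% or more, and the ratio was 0.0227 without the 3 highest cells and 1.006 in cells taken by a per-cell marker gate. With stricter cell filters it was 0.810, and with each library clustered alone 0.765. Ccl2 stood at 0.349 (0.250 to 0.480), with 2 saline cells and 1 CDS cell holding 50%, and at 0.0326 without the 3 highest cells. Looser or stricter filters, both other clustering resolutions and libraries clustered alone gave 0.827 to 0.975 for Ccl2 and ended that call. In saline cells of cluster 28 the 6 fibroblast markers summed to 198 CPM, all from Dcn, and the 8 macrophage markers to 66.0 CPM, with Adgre1 and C1qa at 0. In CDS cells they summed to 0 and 7.85 CPM. The 7 acinar markers summed to 5625 CPM in saline and 369 CPM in CDS cells of cluster 28, against 247 and 564 CPM in cluster 12, and the 6 pericyte markers to 66.0 and 0 CPM in cluster 28. Their part in the Cxcl9, Cxcl10 and Ccl2 ratios was not tested.

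Cxcl12 was called higher in endothelial-like cells, from 24.5 to 50.7 scaled CPM (45 and 93 UMIs, ratio 2.07, 1.43 to 3.02, and 2.15 without the 3 highest cells). Cxcl3 stood at 3.92 (2.10 to 7.86), with 1 cell in each library holding 50% or more of 13 and 51 UMIs. Without the 3 highest cells no UMI was left in CDS cells and 0.551 scaled CPM in saline cells, so no higher call was left. Looser or stricter filters, both other resolutions and libraries clustered alone gave 10.4 to 11.8, and each cell weighted equally 1.503. Cxcl2 went from 563 to 318 scaled CPM (0.565, 0.510 to 0.626) and was at 0.733 without the 3 highest cells. Looser or stricter filters, both other resolutions and libraries clustered alone gave 0.702 to 0.877 and ended that call too. Members between the limits were Ackr3 (1.25, 1.005 to 1.56), Cxcr4 (1.14, 0.855 to 1.51), Ackr1 (0.962, 0.642 to 1.44), Cxcl1 (0.905, 0.787 to 1.04), Cx3cl1 (1.17, 0.757 to 1.81), Cxcl16 (0.989, 0.724 to 1.35), Ccl25 (1.38, 0.813 to 2.39) and Ccl7 (0.962, 0.533 to 1.73). In those same 5 alternatives Ackr3 stood at 1.55 to 1.75 and Cxcr4 at 1.58 to 1.75, past the limit. Without the 3 highest cells Ackr1 stood at 0.599, past the lower limit, from 8.33 and 4.99 scaled CPM. Ccl7 ran from 0.486 with called doublets kept to 1.78 with each library clustered alone, past both limits.

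Cxcl9 and Cxcl10 were thus called lower in both macrophage-like and endothelial-like cells. Both lie on chromosome 5, at chr5:92321347-92328079 and chr5:92346638-92348889 (GRCm38, minus strand). Up to 250 bases before the start sites of these genes are shown with those of the neutrophil attractants Cxcl1, Cxcl2 and Cxcl3 of the same chromosome and, as a ligand of hormone-producing cells, of Ccl28. Sequences are from RefSeq on GRCm38.p6, 5′ to 3′ on the gene's strand, ending at the base before the start. Capitals mark matches, on either strand, of an NF-kB motif (GGGA and CC with any 4 bases between them) or, in Cxcl10 alone among these 6, of the core of an interferon-stimulated response element (GAAA and GAAA with any 2 bases between them), which lies 213 to 204 bases before the start. The intervals are chr5:92328080-92328329 (minus strand) for Cxcl9, chr5:92348890-92349139 (minus) for Cxcl10, chr5:90890995-90891240 (plus) for Cxcl1, chr5:90903649-90903870 (plus) for Cxcl2, chr5:90785851-90786100 (plus) for Cxcl3 and chr13:119623569-119623818 (plus) for Ccl28.
Cxcl9: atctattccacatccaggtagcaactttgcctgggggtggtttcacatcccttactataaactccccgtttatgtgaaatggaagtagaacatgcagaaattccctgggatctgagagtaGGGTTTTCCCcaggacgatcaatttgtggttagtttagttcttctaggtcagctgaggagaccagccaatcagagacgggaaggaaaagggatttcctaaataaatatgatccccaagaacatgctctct
Cxcl10: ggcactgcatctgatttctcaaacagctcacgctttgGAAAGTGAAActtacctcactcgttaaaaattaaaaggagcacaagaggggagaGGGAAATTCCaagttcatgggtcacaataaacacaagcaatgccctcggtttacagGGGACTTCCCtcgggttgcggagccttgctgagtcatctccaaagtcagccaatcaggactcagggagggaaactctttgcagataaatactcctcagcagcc
Cxcl1: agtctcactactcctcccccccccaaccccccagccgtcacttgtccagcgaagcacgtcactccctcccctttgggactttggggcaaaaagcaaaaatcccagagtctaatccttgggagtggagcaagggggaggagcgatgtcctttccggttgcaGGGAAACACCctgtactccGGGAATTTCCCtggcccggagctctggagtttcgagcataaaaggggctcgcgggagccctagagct
Cxcl2: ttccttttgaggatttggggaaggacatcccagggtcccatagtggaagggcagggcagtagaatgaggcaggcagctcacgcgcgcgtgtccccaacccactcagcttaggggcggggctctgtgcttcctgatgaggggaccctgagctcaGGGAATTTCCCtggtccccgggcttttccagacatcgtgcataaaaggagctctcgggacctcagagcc
Cxcl3: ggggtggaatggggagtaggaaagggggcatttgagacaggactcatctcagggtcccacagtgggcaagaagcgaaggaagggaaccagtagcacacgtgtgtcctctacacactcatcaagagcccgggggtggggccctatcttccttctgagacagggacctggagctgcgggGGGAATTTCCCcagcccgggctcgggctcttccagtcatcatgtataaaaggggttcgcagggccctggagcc
Ccl28: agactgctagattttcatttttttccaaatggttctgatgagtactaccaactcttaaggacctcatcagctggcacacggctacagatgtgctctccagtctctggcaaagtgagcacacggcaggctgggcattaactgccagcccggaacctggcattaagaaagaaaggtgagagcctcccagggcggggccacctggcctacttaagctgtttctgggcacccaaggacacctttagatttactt

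Of 27025 RefSeq promoters cut to 250 bases before the start, 17.3% held the NF-kB motif and 3.04% the interferon motif. Of the 43 members with a promoter in the table, 16 held the first (Ccl1, Ccl19, Ccl20, Ccl22, Ccl27a, Ccr1, Ccr3, Ccr8, Ccr9, Cxcl1, Cxcl2, Cxcl3, Cxcl9, Cxcl10, Cxcl13 and Cxcr1), and 3 the second (Ccl19, Cxcl10 and Cxcl14). In Cxcl1, Cxcl2 and Cxcl3 the run of capitals nearest the start is 2 overlapping matches, 1 on each strand, beginning 67, 69 and 73 bases before it. A match describes these letters and is not a measured binding site.

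Genes of the pathways around the chemokines were taken from 3 lists. Of 20 interferon response genes, 19 were measured in macrophage-like cells, and 0 were called higher and 14 lower, beside 14.2% and 11.5% of all genes, with a median log2 ratio of -1.21 against 0.02. The furthest were Iigp1 (114 and 7 UMIs, ratio 0.040), Rsad2 (0.079) and Ifit1 (0.144), which code for interferon-induced antimicrobial proteins. In endothelial-like cells 2 of 19 were called higher and 6 lower (median -0.35 against 0.07), beside 10.6% and 9.65% of all genes, with Iigp1 at 0.232, Ifi47 at 0.333 and Rsad2 at 2.57. In beta-like cells 2 of 19 were called higher and 6 lower (median -0.24 against 0.06), beside 16.1% and 9.78% of all genes. The counts were 0 and 2 of 13 in alpha-like cells (8.72% and 3.55% of all genes), 1 and 2 of 14 in delta-like cells (7.39% and 4.79%), and 1 and 0 of 8 in PP-like cells (19.4% and 9.47%).

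Of 18 NF-kB and cytokine response genes, 16 were measured in macrophage-like cells, with 3 called higher and 3 lower, beside 14.2% and 11.5% of all genes. These included Il1b (1.83, 1.66 to 2.01), which codes for interleukin 1 beta, and Vcam1 (0.462, 0.386 to 0.552), an adhesion molecule. The NF-kB inhibitor Nfkbia stood at 1.72 in endothelial-like, 2.05 in beta-like, 1.90 in alpha-like, 1.80 in delta-like and 1.90 in PP-like cells. Of the whole list, 1 and 1 of 14 were called higher and lower in endothelial-like cells (10.6% and 9.65% of all genes). Counts were 2 and 2 of 15 in beta-like (16.1% and 9.78%) and 3 and 0 of 12 in alpha-like cells (8.72% and 3.55%). They were 1 and 0 of 10 in delta-like (7.39% and 4.79%) and 2 and 1 of 8 in PP-like cells (19.4% and 9.47%). Median log2 ratios were -0.28, -0.01, 0.05, -0.03 and 0.30 in that order, against 0.02 to 0.07 for all genes. Of 26 signalling partners of chemokine receptors, 22 were measured in macrophage-like cells, with 2 called higher and 3 lower, beside 14.2% and 11.5% of all genes. The platelet chemokine Pf4 stood at 1.88 (1.72 to 2.04) there, and Elmo1, which links receptors to Rac, at 0.503 (0.424 to 0.596). The G protein subunit Gng5 was called higher in all 6 classes, between 1.95 in delta-like and 2.70 in beta-like cells.

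In alpha-like cells 8 members were measured, of which 4 were called higher and 0 lower, beside 8.72% and 3.55% of all genes. Cxcl1 went from 10.4 to 37.3 scaled CPM (83 and 383 UMIs, ratio 3.60, 2.83 to 4.62), found in 26 of 919 and 63 of 882 cells, and was at 5.08 without the 3 highest cells. Thinned shares were 0.940% and 2.83%. Cxcl2 stood at 2.51 (1.46 to 4.54) and at 1.56 without the 3 highest cells. Ccl27a stood at 1.77 (1.34 to 2.36), and Ccl2 at 1.69 (1.08 to 2.70) but 1.46 without the 3 highest cells and 1.44 by a per-cell gate. Between the limits lay Cx3cl1 (1.31, 0.913 to 1.90), Ccl28 (1.20, 0.739 to 1.96), Cxcl10 (1.12, 0.638 to 2.00) and Ccl25 (0.805, 0.666 to 0.974). Without the 3 highest cells Cxcl10 stood at 0.279, from 1.75 and 0.490 scaled CPM. Icam1, an adhesion molecule of the NF-kB list, went from 18 to 244 UMIs in these cells (10.6, 6.55 to 18.2). Markers of macrophages summed to 36.1 and 37.7 CPM in saline and CDS alpha-like cells, with Adgre1 at 0 in both, and fibroblast markers to 3.25 and 3.74 CPM. Endothelial markers summed to 16.5 and 13.5 CPM, and acinar markers to 168 and 285 CPM. T cell markers summed to 12.7 and 5.24 CPM, B cell markers to 5.97 and 2.06 CPM and monocyte markers to 7.40 and 3.37 CPM. Their part in the ratios of alpha-like cells was not tested.

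In PP-like cells 4 members were measured, of which 2 were called higher and 1 lower, beside 19.4% and 9.47% of all genes. Cxcl1 had 2 saline UMIs in 1 of 152 cells and 56 CDS UMIs in 13 of 216 cells (ratio 18.0, 4.75 to 152), but was at 0.773 in cells taken by a per-cell gate. In saline and CDS PP-like cells the 7 alpha cell markers summed to 19028 and 68639 CPM, the 9 beta cell markers to 35428 and 73580, and the 6 neutrophil markers to 0.518 and 30.5, with Retnlg, Mmp9 and Ly6g at 0 in both. Their part in the ratios was not tested. Ccl2 had 1 and 60 UMIs (38.5, 6.65 to 1546), with 1 CDS cell holding 50% or more, and no call was left without the 3 highest cells. Ccl25 stood at 0.616 (0.404 to 0.938), and at 0.769 with called doublets kept, 0.683 with the members left in the clustering and 0.677 with each cell weighted equally. Ccl27a stood at 1.45 (0.908 to 2.37), and at 1.20 to 1.97 over 11 alternatives. It was past the upper limit with looser and stricter filters, among others. In delta-like cells 5 members were measured, of which 2 were called higher and 0 lower, beside 7.39% and 4.79% of all genes. Ccl27a went from 107 to 184 UMIs (1.65, 1.29 to 2.12). Ccl5 went from 12 to 38 UMIs (3.04, 1.56 to 6.39), but 1 CDS cell held 50% or more, and the ratio was 0.959 without the 3 highest cells. Ccl28 (1.09, 0.868 to 1.36), Ccl25 (0.835, 0.644 to 1.08) and Cx3cl1 (1.13, 0.780 to 1.65) lay between the limits.

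**Figure D5:**
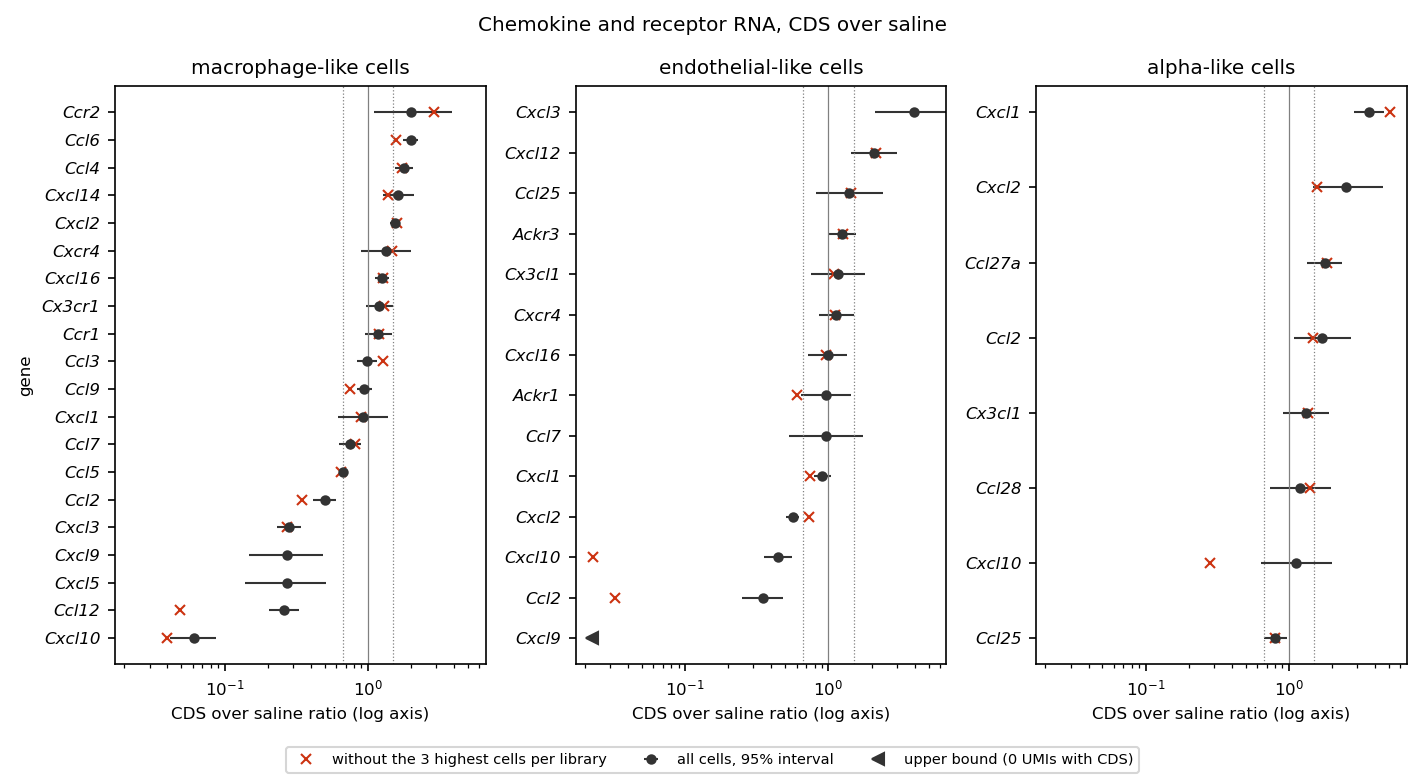
CDS over saline ratios on a log axis of measured members in macrophage-like, endothelial-like and alpha-like cells, with 95% counting intervals (dots and bars). Crosses give the ratio without the 3 highest cells of each library, the triangle an upper bound, and dotted lines the limits of 1.5 and 0.667. Cxcl10 in macrophage-like cells and Cxcl1 in alpha-like cells stay past the limit without those cells, while Cxcl2 in endothelial-like cells and Ccl2 in alpha-like cells do not.

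In beta-like cells 21 members were measured, of which 3 were called higher and 7 lower, beside 16.1% and 9.78% of all genes, with a median log2 ratio of -0.40 against 0.06. Ccl27a went from 6.21 to 13.3 scaled CPM (569 and 1148 UMIs, ratio 2.13, 1.93 to 2.36), found in 10.4% and 25.6% of cells and in 1.01% and 1.68% after thinning. Different clusters hold most beta-like cells in the 2 libraries: cluster 0 had 2804 saline and 357 CDS cells, and cluster 2 had 234 and 1240. Within cluster 0 Ccl27a stood at 6.97 and 10.4 CPM, within cluster 1 at 8.09 and 12 CPM, and within cluster 2 at 7.41 and 12.1 CPM. Cxcl16 stood at 1.92 (1.56 to 2.38), at 1.45 with plain CPM and at 1.48 in cells taken by a per-cell gate. Ccl6 stood at 2.57 (1.52 to 4.50) from 21 and 51 UMIs.

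Like every member measured in beta-like cells, the 7 called lower each had their highest level in another class. They were Ccl21a (68 and 6 UMIs, ratio 0.093, 0.033 to 0.214), Cxcl5 (69 and 9, 0.138, 0.061 to 0.277), Ccr7 (71 and 12, 0.179, 0.088 to 0.332), Ccl7 (81 and 24, 0.313, 0.190 to 0.4995), Cxcl13 (53 and 19, 0.379, 0.212 to 0.651, and 0.691 with each cell weighted equally), Ccl2 (150 and 75, 0.529, 0.395 to 0.702) and Cxcl10 (111 and 59, 0.562, 0.403 to 0.778). In saline cells their levels were between 0.051% (Ccr7) and 0.194% (Cxcl10) of the level in the class that led for each. Ccl5, Ccl9 and Cxcl2, which were not called, lay in the same range, at 0.091%, 0.109% and 0.120%. Ccl6 stood at 0.076% and 0.083% of its macrophage-like level. T cell markers summed to 4.63 and 0.570 CPM in saline and CDS beta-like cells, B cell markers to 10.2 and 5.01 CPM and fibroblast markers to 1.85 and 0.260 CPM, while macrophage markers summed to 23.6 and 25.9 CPM. How far free RNA set these ratios was not tested.

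The other 11 members measured in beta-like cells lay between the limits. Ccl28 stood at 1.20 (1.12 to 1.29) with scaled CPM of 15.7 and 18.9. Plain CPM gives 18.1 and 16.4, so its direction turns with the scaling. Ccl25 stood at 0.732 (0.676 to 0.793). Cx3cr1, at 154 and 129 UMIs (0.886, 0.696 to 1.13), stood at 1.498% and 0.933% of its macrophage-like level. The remaining ones were Cxcl1 (0.758, 0.618 to 0.929), Cxcl2 (1.44, 1.07 to 1.95), Cxcl12 (1.26, 0.840 to 1.90), Cx3cl1 (1.39, 1.01 to 1.90), Cxcr5 (0.930, 0.545 to 1.58), Ccr9 (0.680, 0.403 to 1.13), Ccl5 (0.785, 0.633 to 0.970) and Ccl9 (0.756, 0.434 to 1.30). Cxcl1 ran from 0.344 at the higher clustering resolution to 1.66 with each cell weighted equally, past both limits. In saline 4 cells and in CDS 6 cells held 50% of it. Over 11 alternatives Ccr9 ran from 0.450 to 0.797. It was past the lower limit with stricter filters, plain CPM and median-of-ratios factors, among others.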

How the data were processed

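Mouse islet cells were profiled in 1 saline and 1 CDS library by 10x droplet sequencing. The authors deposited raw UMI counts per gene and barcode, made with Cell Ranger 7.1.0 per the file headers. The submitters' processing notes name mm10, Seurat 4 and edgeR. For strand and intron settings no source used here gives a value. Nothing says how many animals each library pooled, so nothing here measures the spread between animals.

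Kept cells had 500 or more genes, 1000 or more UMIs and no more than 20% mitochondrial UMIs (Scanpy 1.11.5). Scrublet removed 621 of 11591 saline and 227 of 6415 CDS cells, at an expected rate of 0.8% per 1000 cells. Both libraries were clustered together on 2000 variable genes without the members, 30 components and 15 neighbours, with Leiden at resolution 1 (leidenalg 0.10.2). Clusters were named from marker lists. UMIs were summed per class and library, and TMM factors came from edgeR 4.0.16. Classes with at least 100 cells in each library and members with at least 50 UMIs over both were compared, with exact conditional Poisson intervals. The floor for 0 UMIs was 3 counts. Alternatives covered cell filters, doublets, clustering, per-cell gates, scaling (DESeq2 1.42.0 among them), weighting of cells, left-out cells and UMI minimums. Ratios were also computed on simulated class sums of independent Poisson counts with known changes. These lack TMM scaling, UMIs gathered in few cells and spread between animals, so they cannot check the calls made here. Members with at least 100 UMIs, every compared pair, and up to 3 genes per pathway list and class with the largest ratios were to be named. A gene of the set is not reported here. The members, lists and marker lists were chosen with earlier results of these data known. Exons came from GENCODE on GRCm38 and promoters from RefSeq on GRCm38.p6.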

Additional observations from a re-analysis of the deposited data

How the results depend on the processing

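No paired analysis was possible because there was 1 library per group. Of the 36 member and class pairs called, 20 stayed past the limit under every alternative that measured them and 16 missed it under at least 1. Of the 37 pairs not called, 20 passed a limit under at least 1 alternative. Cxcl1 in beta-like cells and Ccl7 in endothelial-like cells passed both limits, each under different alternatives. With no UMI minimum 37 pairs were called higher and 61 lower, with at least 20 UMIs 30 were called lower, and with at least 200 UMIs 9 were called higher and 8 lower. Fewer or more pairs are measured by construction there. Among called pairs the direction turned for Cxcl1 in PP-like cells (ratio 0.773) and Cxcl10 in endothelial-like cells (1.006) under the per-cell gate. Without the 3 cells highest in the gene it turned for Ccl5 in delta-like cells (0.959). The cause was not tested. PP-like cells formed no class with each library clustered alone. Cell numbers limit the T-like, B-like and dendritic-like classes of the CDS library, which held 10, 35 and 14 cells.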
